A study of Mus musculus with 8 samples.

Results

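The 10 imprinted growth genes H19, Igf2, Dlk1, Meg3, Peg3, Plagl1, Cdkn1c, Grb10, Ndn and Mest were followed by symbol through all cells of the mouse periosteum, the thin tissue layer that wraps bone, and they are 10 of the 32285 genes in the count matrices. The 10 were taken from a given list of names, without a threshold on any measured value, and the list was drawn up with earlier results of these data known. Periosteal cells of male C57BL/6J mice aged 16 weeks were compared after a normal diet (ND) or a high-fat diet (HFD). The labels name 4 mice per diet, but each diet is 1 library, and nothing in the barcodes ties a cell to an animal. A difference between the diets therefore cannot be told apart from a difference between the 2 libraries or between single mice, no test between diets was possible, and all intervals below are 95% intervals for counting error only.

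An imprinted gene is transcribed mainly from the copy inherited from 1 parent. Many of these genes act on growth before birth and are switched down in most tissues afterwards, while stromal and progenitor cells of adult tissues can retain them. Igf2, Mest, Peg3, Plagl1, Dlk1 and Ndn are transcribed from the paternal copy and H19, Meg3 and Cdkn1c from the maternal copy, and Grb10 is maternal in most tissues outside the brain. The growth factor Igf2 and the noncoding RNA H19 share a control region and enhancers, and Dlk1 and Meg3 form a second such pair. Plagl1 is a zinc finger transcription factor known to act on a network of co-expressed imprinted genes that includes Igf2, H19, Dlk1 and Cdkn1c. The counts do not separate the parental copies, so imprinting itself was not measured.

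In GRCm38, the build of the deposited counts (named mm10 in the submitters' processing notes), the GENCODE annotation placed H19 on the minus strand at chr7:142575529-142578143 and Igf2 on the same strand at chr7:142650766-142666816, with 72.6 kb between them. Cdkn1c lies on the minus strand of the same chromosome at chr7:143458339-143461050, 792 kb beyond Igf2. Dlk1 (chr12:109452823-109463336) and Meg3 (chr12:109541001-109571726) lie on the plus strand with 77.7 kb between them. The remaining genes are Peg3 (chr7:6703892-6730431, minus), Ndn (chr7:62346569-62350262, plus), Mest (chr6:30723547-30748465, plus), Plagl1 (chr10:13060504-13131694, plus) and Grb10 (chr11:11930508-12038683, minus). Igf2os, antisense to Igf2, and Usp29, which starts beside Peg3, are separate rows of the matrices, and the sources used here do not give whether strand entered the counting.

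Among these genes, 4 are hosts of microRNAs on their own strand. The mature RefSeq sequences (GRCm38.p6) are shown because these small RNAs are a known product of transcription at the measured loci. The capitals mark the seed, bases 2 to 8, and no seed is shared between any pair of them. The libraries counted the host transcripts and not the microRNAs.
miR-675-5p, from H19: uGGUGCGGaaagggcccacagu
miR-675-3p, from H19: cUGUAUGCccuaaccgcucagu
miR-483-5p, from Igf2: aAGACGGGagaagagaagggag
miR-483-3p, from Igf2: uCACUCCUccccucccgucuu
miR-335-5p, from Mest: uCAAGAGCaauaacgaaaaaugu
miR-335-3p, from Mest: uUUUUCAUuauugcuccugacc
miR-770-5p, from Meg3: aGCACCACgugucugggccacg
miR-770-3p, from Meg3: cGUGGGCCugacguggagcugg
miR-1906, listed within Meg3: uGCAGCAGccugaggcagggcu

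The ND library held 48558889 and the HFD library 49940976 unique molecular identifiers (UMIs, 1 per captured RNA molecule), and 6029 ND and 6224 HFD cells passed the filter on detected genes and mitochondrial UMIs. Of all barcodes, 15 occurred in both libraries. Clusters were made without the 10 genes, so that none of them took part in defining a class, and a class was named from its markers. The mesenchymal-like class (Pdgfra, Col1a1, Col1a2, Col3a1, Prrx1, Dcn and Lum, all 7 markers detected) held 408 ND and 669 HFD cells with a median of 10660 and 9556 UMIs. The endothelial-like class held 117 and 231 cells, and the class like pericytes or smooth muscle 31 and 59. All blood cell classes together held 5298 and 5137 cells. No cluster passed as muscle, adipocyte or Schwann cells.

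Most UMIs of every one of the 10 genes lay in the mesenchymal-like cells. The mesenchymal-like cells held 96.3% of all H19 UMIs, 95.5% of Ndn, 92.8% of Dlk1, 90.5% of Meg3, 90.4% of Mest, 88.1% of Peg3, 84.0% of Cdkn1c, 80.9% of Plagl1, 79.2% of Grb10 and 69.4% of Igf2. These figures combine both libraries, in which the class made up 408 of 6029 and 669 of 6224 cells. Over all blood cells, no member reached 5 UPM (UMIs of the gene per 1000000 UMIs of the class) in either library. Cdkn1c, an inhibitor of cyclin-dependent kinases, was the highest of them there with 3.15 UPM (2.64 to 3.74) in ND and 4.12 (3.52 to 4.80) in HFD, and H19 stood at 0.0955 UPM (0.0260 to 0.245) and 0.645 (0.421 to 0.945). Of the single blood cell classes, the ND basophil or mast-like cells had the highest Cdkn1c value, at 26.8 UPM from 14 UMIs. UPM compares 1 gene between groups of cells. How well different transcripts were captured was not measured, so levels are not ranked between genes.

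**Figure D1:**
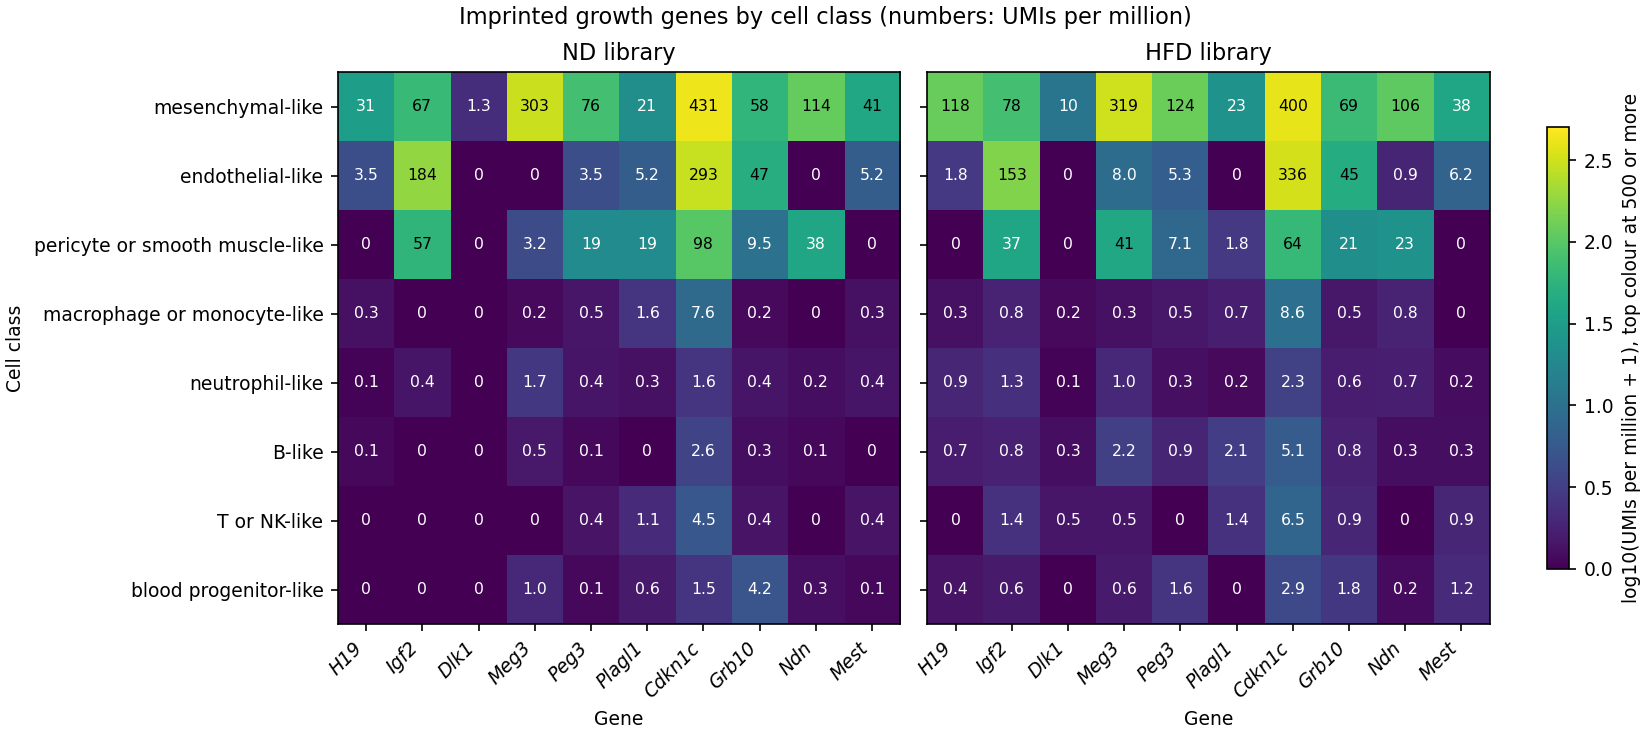
Level of each gene (columns) in each cell class (rows), as UPM (UMIs per 1000000 UMIs) printed in the fields and as colour on a log10 scale, for the ND library (left) and the HFD library (right). The mesenchymal-like row carries all 10 genes, the endothelial-like row carries Igf2, Cdkn1c and Grb10, and among the blood cell rows drawn the highest value is 8.59 UPM, for Cdkn1c in the HFD macrophage or monocyte-like cells.

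Endothelial-like cells expressed the growth factor Igf2, at 184 UPM (150 to 222, 106 UMIs) in ND and 153 (131 to 178, 172 UMIs) in HFD, which was above its level over all mesenchymal-like cells (67.0, 59.9 to 74.8, and 77.6, 71.2 to 84.4). Endothelial-like cells also carried Cdkn1c, at 293 UPM (250 to 340) and 336 (303 to 372), and Grb10, an adaptor that dampens insulin and IGF receptor signaling, at 46.8 UPM (30.8 to 68.0) and 45.5 (33.9 to 59.8). The other 7 members had few UMIs in them. Dlk1 had 0 UMIs in both libraries, which allows up to 5.20 and 2.67 UPM, Ndn had 0 and 1 UMI, Plagl1 3 and 0, H19 2 and 2, Peg3 2 and 6, and Mest 3 and 7. Meg3 had 0 UMIs in ND, and its 9 UMIs in HFD came from 1 cell. Beside their Igf2, endothelial-like cells thus held little H19, with 0.0189 H19 UMIs per Igf2 UMI in ND (0.00226 to 0.0699) and 0.0116 in HFD (0.00140 to 0.0426). Over all mesenchymal-like cells the ratio was 0.466 (0.381 to 0.567) and 1.52 (1.37 to 1.70). A low ratio was not particular to endothelial-like cells. In the osteoblast-like subcluster of mesenchymal-like cells it was 0 in ND (0 to 0.183) and 0.0227 in HFD (0.000563 to 0.133). The cells like pericytes or smooth muscle had 0 H19 UMIs beside 18 and 21 Igf2 UMIs. Of the mesenchymal-like H19 UMIs, 137 of 149 in ND and 660 of 828 in HFD lay in the Mfap4/Nppc subcluster. Igf2 was unevenly spread over the endothelial-like cells, since 21 of 117 ND cells and 38 of 231 HFD cells had a UMI and 5 cells carried 67 of the 106 and 101 of the 172 UMIs. Without the top 5 cells of each library, the Igf2 level was 74.9 UPM in ND and 66.7 in HFD. The same measure was 47.0 and 63.6 UPM over all mesenchymal-like cells, so the difference between the classes was smaller in both libraries. Leaving out 5 cells takes a larger share of the endothelial-like cells (117 and 231) than of the mesenchymal-like cells (408 and 669). In the Mfap4/Nppc subcluster of mesenchymal-like cells, described below, the Igf2 level without the top 5 cells was 149 and 246 UPM.

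The cells like pericytes or smooth muscle gave Igf2 at 57.0 UPM (33.8 to 90.1, 18 UMIs) and 37.3 (23.1 to 57.0, 21 UMIs), Cdkn1c at 98.2 (66.7 to 139) and 63.9 (44.8 to 88.5), and Ndn, a growth-restraining MAGE family protein, at 38.0 (19.6 to 66.4) and 23.1 (12.3 to 39.5). H19, Dlk1 and Mest had 0 UMIs in this class in both libraries, which allows up to 9.50 UPM in ND and 5.33 in HFD.

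The mesenchymal-like cells were then divided into 9 subclusters, again without the 10 genes. Those with the most cells were a subcluster led by H19, Mfap4, Nppc, Ostn and Wnt16 (90 ND and 122 HFD cells, called the Mfap4/Nppc subcluster after its leading genes other than the 10 members, since its markers gave it no clear name), a Ccl11 fibroblast-like subcluster (92 and 162), a Pi16/Ccl2 subcluster (92 and 107) and an osteoblast-like subcluster (59 and 128). The other 5 held 7 to 51 cells per library. They were 1 with the RNA of neutrophils, 1 of shallow Ccl11 fibroblast-like cells, 1 led by Prg4 and F13a1, and the tenocyte-like and chondrocyte-like cells. The top 5% of doublet scores included 58.5% of the cells with neutrophil RNA and 56.5% of the Prg4/F13a1 cells. Both subclusters stayed in the mesenchymal-like class. The cells with neutrophil RNA were 8.33% of that class in ND and 4.63% in HFD.

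H19 and Igf2 were both among the top 10 genes of the Mfap4/Nppc subcluster by fold, which describes it and is no test. It held a large part of these transcripts. It made up 212 of the 1077 mesenchymal-like cells and held 78.5% of all H19 UMIs of the kept cells, 65.1% of Dlk1, 52.9% of Igf2, 51.1% of Cdkn1c, 48.1% of Peg3, 47.9% of Mest and 36.4% of Meg3, but only 23.5% of Plagl1, 22.0% of Ndn and 21.5% of Grb10. Cdkn1c was detected in 98.9% of its ND cells (93.96 to 99.97) and 98.4% of its HFD cells (94.2 to 99.8), at 1293 UPM (1225 to 1364) and 1223 (1164 to 1284). In the Ccl11 fibroblast-like subcluster Cdkn1c was at 303 UPM (270 to 339) and 277 (253 to 303), in the osteoblast-like subcluster at 271 (229 to 319) and 356 (322 to 393), and in the Pi16/Ccl2 subcluster at 97.1 (79.9 to 117) and 72.9 (58.9 to 89.2). The order of these 4 subclusters was the same in both libraries apart from the Ccl11 fibroblast-like and osteoblast-like subclusters, whose intervals overlapped in ND.

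Ndn followed another pattern. Among the 4 largest subclusters it was highest in the Ccl11 fibroblast-like subcluster (174 UPM, 149 to 202, in ND and 149, 131 to 168, in HFD) and the Pi16/Ccl2 subcluster (149, 128 to 173, and 163, 142 to 187), whose intervals overlapped in both libraries. In the Mfap4/Nppc subcluster it was at 118 UPM (98.1 to 141) and 132 (113 to 154), which overlapped the Pi16/Ccl2 intervals in both libraries and that of the Ccl11 fibroblast-like subcluster in HFD. In the osteoblast-like subcluster it was at 14.8 UPM (6.37 to 29.1) and 17.2 (10.4 to 26.9). Mest, which codes for a hydrolase-like protein of mesoderm, was nearly absent from the Pi16/Ccl2 subcluster, with 4 UMIs in 92 ND cells and 7 in 107 HFD cells, against 114 in 90 and 131 in 122 Mfap4/Nppc cells. In the tenocyte-like subcluster, Mest had 11 UMIs in ND, 10 of them in 1 cell, and 32 UMIs in 9 of 37 HFD cells (96.9 UPM, 66.3 to 137).

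Plagl1 was at 34.6 UPM (24.2 to 47.8) and 30.4 (21.7 to 41.5) in the Mfap4/Nppc subcluster and 38.7 (24.0 to 59.2) and 41.7 (30.5 to 55.7) in the osteoblast-like subcluster, and these intervals overlapped. In the osteoblast-like cells H19 had 0 UMIs in ND and 1 in HFD, and Dlk1 had 0 in both. Grb10 varied least over the 4 largest subclusters. It ranged from 55.5 to 78.7 UPM over them in ND and from 70.6 to 95.1 in HFD, with all intervals in each library overlapping. Meg3, a long noncoding RNA, was at 626 UPM (579 to 676) and 630 (588 to 675) in the Mfap4/Nppc subcluster and between 175 and 279 UPM in the other 3 large subclusters of both libraries.

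**Figure D2:**
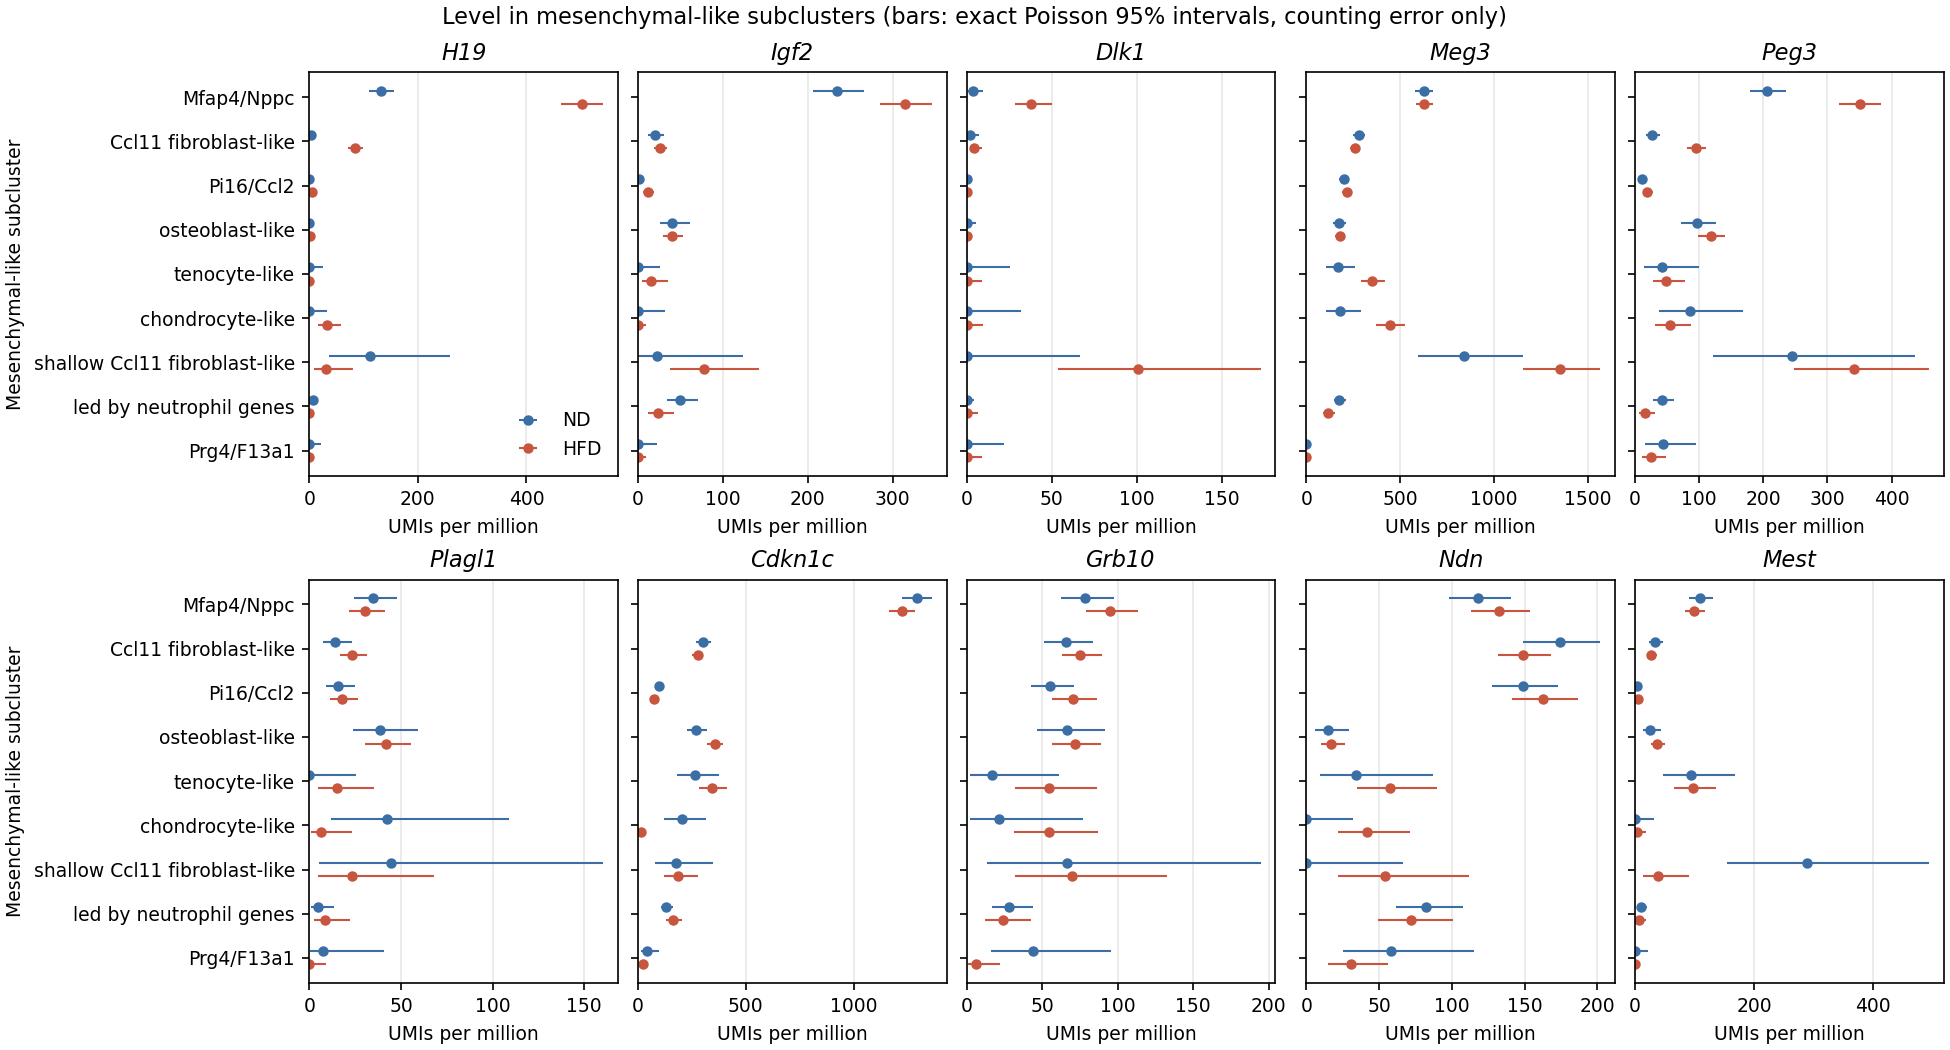
Level of each gene in the 9 mesenchymal-like subclusters, in UPM on a linear axis that differs between panels, with ND in blue and HFD in red and bars for exact Poisson 95% intervals. H19, Igf2 and Cdkn1c peak in the Mfap4/Nppc subcluster and Ndn does not. H19, Dlk1, Peg3 and, by a smaller fold, Igf2 show red points to the right of blue ones there.

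Across the 41 final clusters of both libraries, Meg3 and Peg3 were the most alike pair of members (Pearson r of log2(UPM + 10) = 0.94), followed by Meg3 and Grb10 (r = 0.92). Clusters share library, depth and free RNA, and they are not replicates, so these are descriptions. Among the 11881 genes with at least 200 UMIs, the gene most like Meg3 was Rian (r = 0.98), the noncoding RNA that follows it in the same imprinted locus, and Rian was also the most like Peg3 (r = 0.95). The gene most like H19 was Gsta3 (r = 0.91), followed by Slc1a3 (0.88) and 6330403K07Rik (0.87). Igf2 was most like Epha4 (0.91), Fmo1 (0.89) and Tspan9 (0.87). The leading genes for the other members were Meis2 for Plagl1 (0.97), Col8a1 for Cdkn1c (0.94), Spats2l for Grb10 (0.98), C1qtnf2 for Ndn (0.96) and Gm17167 for Mest (0.96), and the imprinted Sgce was second for Cdkn1c (0.94). Dlk1, with 83 UMIs, was too sparse for this measure.

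Promoter windows had 300 bases (250 before and 50 after the annotated start, RefSeq, GRCm38.p6). Windows were matched for 8 of the 10 genes, all but H19 and Cdkn1c, with 15 windows in all. They were searched on both strands for the palindrome GGGGCCCC, a core of the motif known for Plagl1, and for TATAAA. The motifs have no letter in common and cannot overlap. GGGGCCCC occurred in 1 of the 15 windows, that of Peg3, and in 1.08% of all 32851 promoter windows. TATAAA also occurred in 1 of the 15, a start of Meg3, and in 13.6% of all windows. Both windows are shown because Peg3 and Meg3 were the most alike members, with each match on either strand in capitals. In the Meg3 window the capitals join overlapping matches on opposite strands. A match is a string of letters and not a binding site.
Peg3, chr7:6730370-6730669, minus strand: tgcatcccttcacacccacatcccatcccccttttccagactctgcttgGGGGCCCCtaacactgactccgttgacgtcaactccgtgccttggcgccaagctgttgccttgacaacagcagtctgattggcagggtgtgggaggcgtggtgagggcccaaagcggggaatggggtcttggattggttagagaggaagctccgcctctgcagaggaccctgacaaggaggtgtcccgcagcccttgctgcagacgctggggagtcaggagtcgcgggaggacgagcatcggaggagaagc
Meg3, chr12:109540746-109541045, plus strand: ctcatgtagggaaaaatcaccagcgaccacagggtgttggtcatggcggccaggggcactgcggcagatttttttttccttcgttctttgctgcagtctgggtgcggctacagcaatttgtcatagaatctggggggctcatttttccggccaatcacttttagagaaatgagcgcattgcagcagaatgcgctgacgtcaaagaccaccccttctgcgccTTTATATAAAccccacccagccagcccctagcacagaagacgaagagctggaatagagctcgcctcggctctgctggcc

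The study set HFD against ND in a model of diabetes, with the link between nerve damage and bone disease as its question. In the mesenchymal-like cells, H19, Dlk1 and Peg3 were higher in the HFD library and the other 7 genes differed by less than 1.5-fold. A gene was counted as different when its UPM differed at least 1.5-fold and both libraries together held at least 50 UMIs of it, with 0.5 added to each count in the ratio, and all 10 members had enough UMIs. Thus 3 of 10 members were past the fold upwards, beside 5.44% of all 10794 genes measured in the same cells, and 0 of 10 downwards, beside 3.9%, or 9.34% in either direction. Dlk1, with 6 UMIs in ND and 71 in HFD, reached the minimum only through HFD. It could therefore be counted only upwards and lends this count no support. The median log2 ratio was 0.19 over the 10 members and 0.05 over all genes.

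H19 had 149 UMIs in ND and 828 in HFD, or 31.2 UPM (26.4 to 36.6) and 118 (110 to 127). The HFD level was 3.78-fold that of ND (3.18 to 4.54, log2 ratio 1.92), the 29th highest ratio of the 10794 genes. Dlk1, a transmembrane Notch-like protein that holds back fat cell formation, had 6 and 71 UMIs, or 1.26 UPM (0.461 to 2.74) and 10.1 (7.92 to 12.8), a log2 ratio of 2.91 (1.82 to 4.51). Peg3, a zinc finger protein, had 364 and 871 UMIs, or 76.3 UPM (68.6 to 84.5) and 124 (116 to 133), a ratio of 1.63-fold (1.44 to 1.85), close to the fold that was asked for.

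Igf2, the neighbour of H19, differed less. Its 320 and 543 UMIs gave 67.0 and 77.6 UPM, a ratio of 1.16-fold (1.01 to 1.33). Its log2 ratio was 0.21, and 0.02 with the top doublet scores removed. Meg3, the neighbour of Dlk1, was at 303 UPM (288 to 319) in ND and 319 (306 to 332) in HFD, with a ratio of 1.05-fold (0.984 to 1.13). The remaining ratios were 1.12 for Plagl1 (0.870 to 1.46), 1.18 for Grb10 (1.02 to 1.37), 0.927 for Cdkn1c (0.876 to 0.982), 0.936 for Ndn (0.837 to 1.05) and 0.937 for Mest (0.777 to 1.13). None of these 7 intervals reached 1.5-fold in either direction. With every cell thinned to 1000 UMIs, however, Igf2 passed the fold (log2 ratio 0.62) and Dlk1 had fewer than 50 UMIs. The 3 genes counted were then H19, Igf2 and Peg3. In thinned cells Igf2 was detected in 24 of 408 ND and 44 of 665 HFD cells, with at least 2 UMIs in 2 and 15. H19 was detected in 10 and 34. With so few ND cells, the thinned count lends no support.

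**Figure D3:**
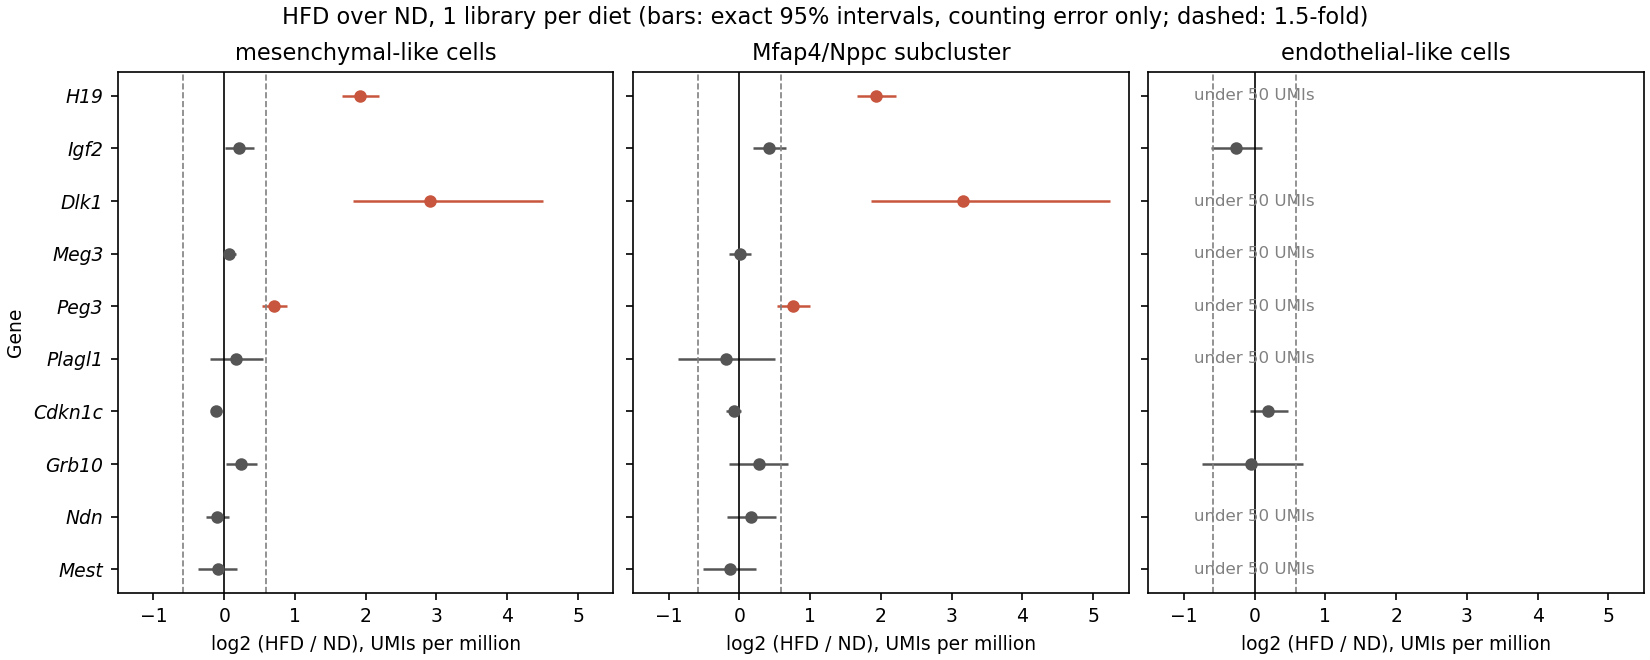
Log2 ratio of HFD over ND for each gene in mesenchymal-like cells, the Mfap4/Nppc subcluster and endothelial-like cells, with exact 95% intervals for counting error and dashed lines at 1.5-fold. H19, Dlk1 and Peg3 (red) lie to the right of the upper line in the first 2 panels, and genes with under 50 UMIs are marked as such.

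The same 3 genes were past the fold inside the Mfap4/Nppc subcluster, so that the difference was present within 1 subcluster. That subcluster held 797 of the 977 H19, 54 of the 77 Dlk1 and 675 of the 1235 Peg3 UMIs of the class. Its ratios thus read most of the same UMIs again and are no separate result. There H19 had 137 UMIs in ND and 660 in HFD, or 131 UPM (110 to 155) and 502 (465 to 542), a ratio of 3.81-fold (3.17 to 4.63). Dlk1 had 4 and 50 UMIs, a log2 ratio of 3.15 (1.86 to 5.24), and Peg3 215 and 460, a ratio of 1.69-fold (1.44 to 2.00). Here too Dlk1 reached the minimum of 50 UMIs only through HFD. Igf2 had 244 and 413 UMIs, a ratio of 1.34-fold (1.14 to 1.58). Its log2 ratio was 1.07 in thinned cells, from only 14 ND and 29 HFD cells with a UMI. Of the 5830 genes measured in this subcluster, 6.54% were past the fold upwards and 4.96% downwards. The subcluster itself was 22.1% (18.1 to 26.4) of the ND and 18.2% (15.4 to 21.4) of the HFD mesenchymal-like cells, with a median of 11006 and 10176.5 UMIs and 2.00% and 1.61% mitochondrial UMIs.

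Some markers of other cells moved with these values. In the Mfap4/Nppc subcluster the 8 leading genes that name it summed to 9390 UPM in ND and 9485 in HFD. The 6 Schwann cell markers, of which 4 were at 0 in ND and 1 in HFD, summed to 212 and 431 UPM, the 6 neutrophil markers to 1461 and 2145, and the 6 osteogenic markers to 1572 and 2137. The 6 dendritic cell markers summed to 104 and 177 UPM and the 6 erythroid ones to 25.0 and 47.2. Other lists were lower in HFD, with the 6 macrophage or monocyte markers at 124 and 35.8 UPM and the 7 osteoblast markers at 1449 and 1019. The part of these lists in the result was not tested. The defining markers of adipocytes were at or near 0 there, with 0 UMIs in ND and 1 in HFD over all 4. Over all mesenchymal-like cells the neutrophil markers were the other way, at 18960 UPM in ND and 8930 in HFD, and so were those of macrophages or monocytes, at 89.7 and 38.4. Higher in HFD over all mesenchymal-like cells were the erythroid markers (22.8 and 205 UPM), the Schwann cell markers (99.3 and 181), those of pericytes or smooth muscle (114 and 201), the adipocyte markers (1.68 and 6.29) and the osteoblast markers (2690 and 3858). Their part in the H19, Dlk1 and Peg3 values was not tested.

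In HFD, H19 was found in a larger share of cells and at more UMIs per cell. In the Mfap4/Nppc subcluster, H19 was detected in 18 of 90 ND cells (20.0%, 12.3 to 29.8) and 41 of 122 HFD cells (33.6%, 25.3 to 42.7), and these intervals overlapped. With every cell thinned to 1000 UMIs, the shares were 11.1% and 20.5%. In B-like cells H19 was detected in 0.0631% of ND and 0.263% of HFD cells, at a median of 3833 and 3783 UMIs. Among cells with a UMI, the median was 5 UMIs in ND and 12 in HFD, and the highest cell held 41 and 108. At least 5 UMIs were found in 10 ND and 30 HFD cells. The UMIs were concentrated, since 4 of 90 ND cells and 8 of 122 HFD cells held at least 50% of them. Without the 5 cells with the most H19 in each library, the level over mesenchymal-like cells was 12.98 UPM in ND and 81.7 in HFD. Those 5 cells held 88 of the 149 ND UMIs and 260 of the 828 HFD UMIs, so their removal took a larger share from ND. Whether the cells with high H19 came from 1 mouse or from all 4 cannot be told.

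Dlk1 rested on fewer cells. It was detected in 3 of 90 ND and 13 of 122 HFD cells of the Mfap4/Nppc subcluster, and 41 of the 50 HFD UMIs lay in 5 cells. A single cell of another subcluster, the shallow Ccl11 fibroblast-like one, held a further 13 UMIs. When the 5 cells with the most Dlk1 were left out of each library, the mesenchymal-like cells retained 0 UMIs in ND and 18 in HFD. Igf2, in contrast, was detected in 48 of 90 and 77 of 122 cells (53.3%, 42.5 to 63.9, and 63.1%, 53.9 to 71.7) with a highest cell of 29 and 28 UMIs.

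**Figure D4:**
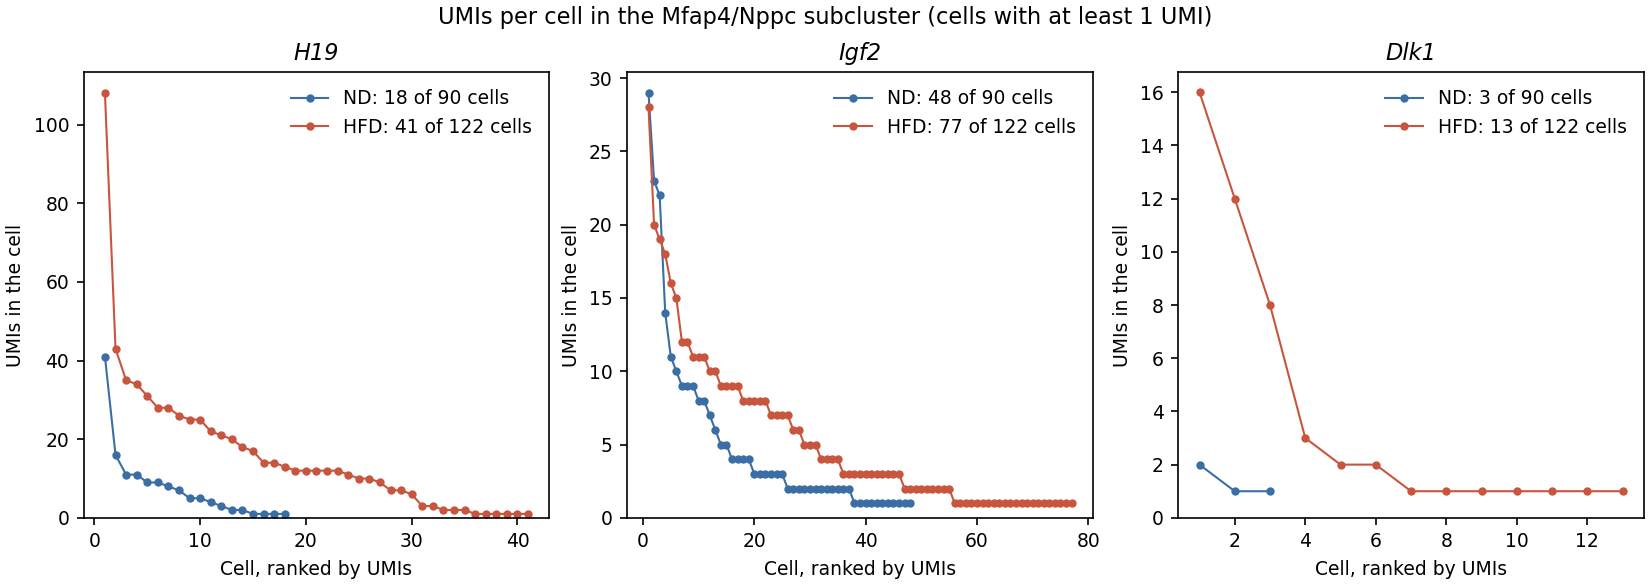
UMIs per cell of H19, Igf2 and Dlk1 in the Mfap4/Nppc subcluster, with the cells of each library ranked from the highest down and cells without a UMI left out. The HFD curve of H19 lies above that of ND along its whole length and starts from 1 cell of 108 UMIs, the Igf2 curves start at 29 and 28 UMIs, and 2 of the 13 HFD cells with Dlk1 hold at least 50% of its UMIs.

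In the Ccl11 fibroblast-like subcluster H19 had 3 UMIs in 3 of 92 ND cells and 146 UMIs in 15 of 162 HFD cells, or 3.00 UPM (0.619 to 8.77) and 84.1 (71.0 to 98.9). Of the 146 UMIs, 128 lay in 5 cells, the highest with 39. Peg3 was spread more widely in the same subcluster, with 27 UMIs in 17 ND cells and 164 UMIs in 47 HFD cells, or 27.0 UPM (17.8 to 39.3) and 94.4 (80.5 to 110), a ratio of 3.44-fold (2.32 to 5.46). Plagl1 was also past the fold there, from 14 and 40 UMIs, at 1.61-fold (0.876 to 3.27), an interval that includes no difference. Of the 9 members with enough UMIs, these 3 were past the fold upwards and 0 downwards, beside 8.29% and 3.68% of the 6059 genes measured. None of the 3 reached 50 UMIs in ND alone, so this count is a description and no support. The leading genes of the Mfap4/Nppc subcluster summed to 390 UPM in ND and 480 in HFD in these cells. The Schwann cell markers were at 25.0 and 63.9 UPM there, those of adipocytes at 8.01 and 24.8, those of pericytes or smooth muscle at 50.04 and 87.5, the erythroid ones at 20.0 and 43.2, the neutrophil ones at 1542 and 1020.5, and the osteoblast ones at 111 and 46.6. Their part in the result was not tested.

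In the Pi16/Ccl2 and osteoblast-like subclusters none of the 4 and 7 members with at least 50 UMIs was past the fold, beside 5.64% and 8.21% of genes upwards, 3.9% and 6.57% downwards, and 9.54% and 14.8% in either direction. Members under the minimum could not be counted. In the Pi16/Ccl2 subcluster these included H19, with 0 UMIs in ND and 7 in HFD, and Igf2, with 1 and 15. An absence of a difference in H19 or Igf2 is therefore not shown there. Cdkn1c in osteoblast-like cells had a log2 ratio of 0.39 (0.12 to 0.68). In endothelial-like cells, Igf2 (0.834, 0.652 to 1.07), Cdkn1c (1.15, 0.955 to 1.39) and Grb10 (0.964, 0.598 to 1.61) had enough UMIs and 0 of 3 were past the fold, beside 5.9% of genes upwards and 5.05% downwards. In the class like pericytes or smooth muscle Cdkn1c was the only member with enough UMIs, and its ratio was past the fold downwards (0.649, 0.392 to 1.09), with an interval that includes no difference, where 6.37% of genes were past it upwards and 7.07% downwards.

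H19 and Igf2 are neighbours that share enhancers, so their detection in the same cells was counted. Among the 408 ND mesenchymal-like cells, 14 had both genes, 9 had H19 only, 67 had Igf2 only and 318 had neither. Among the 669 HFD cells the numbers were 36, 27, 106 and 500. Igf2 was thus found in 60.9% (38.5 to 80.3) of ND and 57.1% (44.0 to 69.5) of HFD cells with H19, and in 17.4% (13.8 to 21.6) and 17.5% (14.5 to 20.8) of cells without H19. Seen from the other side, H19 was found in 17.3% (9.78 to 27.3) of ND and 25.4% (18.4 to 33.3) of HFD cells with Igf2. Depth differed little, with a median of 10374 UMIs in ND cells with H19 and 10695 in those without, and 10434 and 9465 in HFD.

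Of the cells with both genes, 12 of 14 in ND and 31 of 36 in HFD belonged to the Mfap4/Nppc subcluster. Within the Mfap4/Nppc subcluster Igf2 was found in 12 of 18 ND cells with H19 (66.7%, 41.0 to 86.7) and in 36 of the 72 without (38.0% to 62.0%), and in 31 of 41 HFD cells with H19 (75.6%, 59.7 to 87.6) and 56.8% (45.3 to 67.8) of those without. All of these pairs of intervals overlapped. With every cell thinned to 1000 UMIs, the HFD shares were 48.0% (27.8 to 68.7) with H19 and 17.5% (10.6 to 26.6) without, and did not overlap. The thinned ND shares were 40.0% (12.2 to 73.8) and 12.5% (6.16 to 21.8), with overlap. Over all UMIs, the intervals of the Igf2 level did not overlap. The level was 510 UPM (417 to 618) in ND cells with H19 and 166 (140 to 196) in those without. In HFD it was 452 (393 to 517) and 239 (207 to 274). These intervals leave out the spread between cells. Of the 105 Igf2 UMIs in the 18 ND cells with H19, 1 cell held 29 and another 22. Outside this subcluster, the mesenchymal-like cells had both genes in 2 of 318 ND and 5 of 547 HFD cells, while 31 and 60 cells had Igf2 only.

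**Figure D5:**
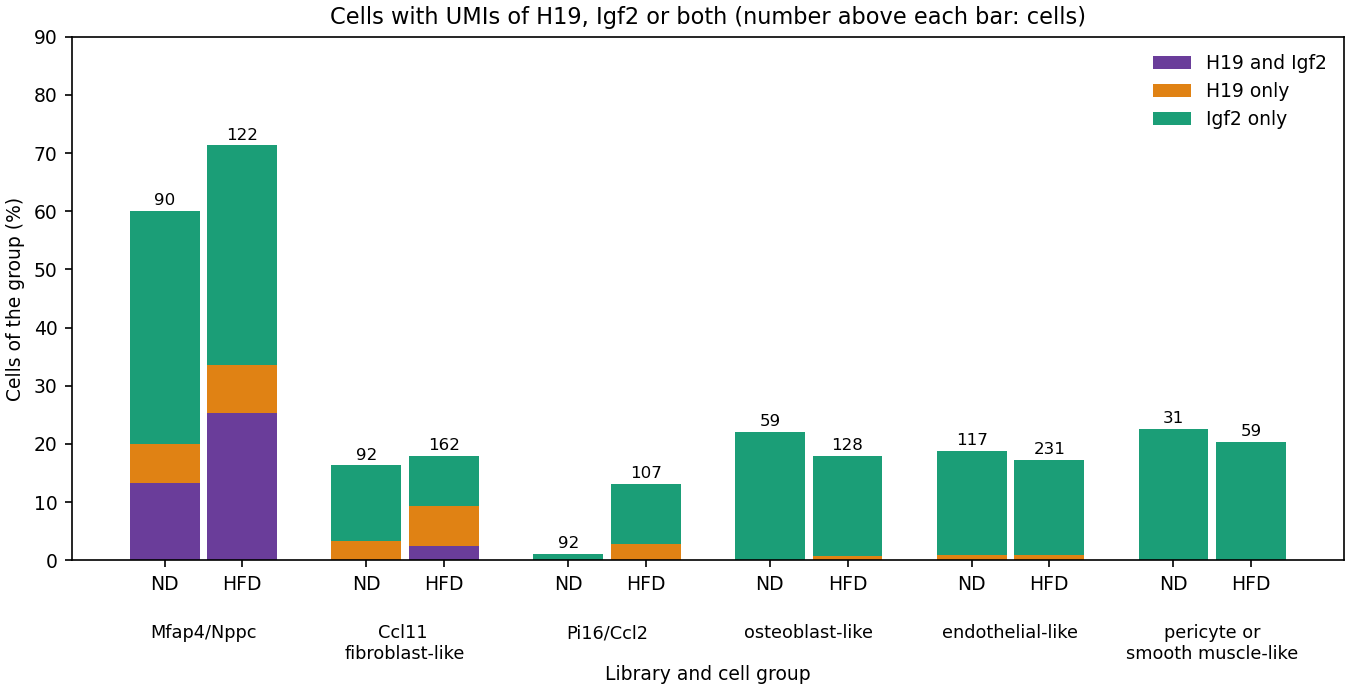
Share of cells in which both H19 and Igf2 (purple), H19 only (orange) or Igf2 only (green) were detected, for 4 mesenchymal-like subclusters and the vascular classes, with the number of cells above each bar. Among the groups drawn, purple appears in the Mfap4/Nppc subcluster (12 ND and 31 HFD cells) and in 4 HFD cells of the Ccl11 fibroblast-like subcluster, and the vascular classes held 0 cells with both.

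The other members were also read in cells with and without H19 of the Mfap4/Nppc subcluster. In ND, Peg3 was at 398 UPM (317 to 495) in the 18 cells with H19 and 159 (133 to 189) in the 72 without, and Cdkn1c at 1628 (1458 to 1812) and 1210 (1137 to 1287). In HFD, Peg3 was at 375 UPM (321 to 434) in the 41 cells with H19 and 336 (299 to 378) in the 81 without, so that its intervals overlapped, and Cdkn1c was at 1308 (1206 to 1416) and 1176 (1104 to 1251), with overlap as well. Mest (133, 102 to 170, and 81.5, 63.4 to 103) and Grb10 (128, 98.0 to 165, and 76.8, 59.2 to 97.8) were higher in HFD cells with H19. The Mest intervals overlapped slightly and those of Grb10 did not. The direction was the same in ND, where Mest was at 146 (98.4 to 208) and 100 (80.1 to 124). Grb10 was at 112 (70.9 to 168) and 70.6 (53.7 to 91.0) in ND, and both pairs overlapped. Ndn was at 165 and 106 UPM in ND and 158 and 118 in HFD. The intervals of Ndn, Meg3 and Dlk1 overlapped in both libraries. Plagl1 was at 24.3 and 37.1 UPM in ND (5 and 31 UMIs) and 42.8 and 23.6 in HFD (20 and 20 UMIs), with wide and overlapping intervals.

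Of 48 other imprinted genes, 27 had at least 50 UMIs in mesenchymal-like cells. Of these, 6 were past the fold upwards and 1 downwards, beside the 5.44% and 3.9% of all genes. Among those upwards, Peg10, Zim1, Tfpi2 and Ppp1r9a had fewer than 50 UMIs in ND and reached the minimum only with their HFD UMIs. The count is therefore a description and no support. Those upwards were Peg10, a retrotransposon-derived gene, with 45 and 151 UMIs (log2 ratio 1.18, 0.71 to 1.71), Zim1, a neighbour of Peg3, with 16 and 47 (0.97, 0.16 to 1.92), Airn with 59 and 158 (0.86, 0.43 to 1.33), Tfpi2 with 27 and 61 (0.61, -0.05 to 1.33), Ppp1r9a with 25 and 56 (0.60, -0.09 to 1.35), and Igf2r with 466 and 1027 (0.59, 0.43 to 0.75). Slc22a18 was the 1 downwards, with 29 and 27 UMIs (-0.65, -1.47 to 0.15). The 5 with the most UMIs were Dcn, Gnas, Cd81, Igf2r and Sgce, and apart from Igf2r their log2 ratios lay between -0.03 and 0.19. Dcn is also among the markers from which the class was named, so its high level there was given in advance. Igf2r is the receptor that carries Igf2 to the lysosome, and Airn is transcribed antisense to it, so that reads where the 2 overlap can be told apart only by strand.

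Among 10 other genes of the IGF system (the ligand Igf1, its receptors, and binding proteins), which include Igf2r, 1 was past the fold upwards and 1 downwards in mesenchymal-like cells, beside 5.44% and 3.9% of all genes, and 1 gene of 10 is too few to read against these shares. The latter was the binding protein Igfbp2, with 59 UMIs in ND and 13 in HFD (log2 ratio -2.69, -3.73 to -1.85). Igf1, with 1822 and 1922 UMIs, had a log2 ratio of -0.47 (-0.57 to -0.38).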

How the data were processed

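The deposited matrices hold raw counts of UMIs per gene and barcode, made by the authors, whose submitters' processing notes name Cell Ranger 6.0.1 and the build mm10. Each diet has 1 matrix. Barcodes with more than 500 and fewer than 8000 genes and under 20% mitochondrial UMIs were kept. Kept cells were normalised with sctransform 0.4.2 and clustered in Seurat 5.3.0 (R 4.3.3, 30 components, resolution 0.5) without the 10 genes, giving 28 clusters, and the mesenchymal-like and unnamed cells were clustered again, giving 41 in all. Clusters were named from marker lists. They remained unnamed where fewer than 3 markers were detected or where another class had as many or more markers among the top 10 genes. Clusters made from unnamed cells also remained unnamed where most of their cells lacked the markers.

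Counts were summed per class and library (Python 3.11.15, scipy 1.17.1) and divided by the UMIs of the class. Levels have exact Poisson intervals, shares exact Clopper-Pearson intervals and ratios exact conditional binomial intervals, each at 95%. A count of 0 allows up to 3 counts. The ratio script was tested on simulated data. For thinned values, each cell was drawn down to 1000 UMIs. Shallower cells, 55 in ND and 51 in HFD, were dropped. Scrublet (scanpy 1.11.5) marked 0.149% of ND and 0.370% of HFD cells as doublets, under 0.5%, so it was taken not to have worked. Doublets were retained, and the top 5% of scores in each library were removed as an alternative.

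The text names all 10 members, the 5 other imprinted genes highest in mesenchymal-like cells and any past the fold, members of the IGF list, and up to 3 genes most like each member. The members and lists were chosen with earlier results of these data known. The Igfbp2 and Igf1 values were singled out after they were seen.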

Additional observations from a re-analysis of the deposited data

How the results depend on the processing

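No paired analysis was possible because the mice of each diet share 1 library and no barcode carries a mouse or replicate number, and for the same reason no replicate could be left out. In mesenchymal-like cells the log2 ratio of H19 was 1.92 and stayed above 1.5-fold throughout. It was 1.63 with the top doublet scores removed and 1.54 with cells gated by markers. In thinned cells it was 1.65, from 10 ND and 34 HFD cells with a UMI. Without the 5 cells with the most H19 per library it was 2.64. Those cells held 59.1% of the ND and 31.4% of the HFD UMIs, so their removal took more from ND and lends no support. The log2 ratio of Igf2 was 0.62 in thinned cells (24 ND and 44 HFD cells with a UMI), against 0.21. It was 0.44 without its top 5 cells and 0.02 with the top doublet scores removed. That of Peg3 was 1.22 in thinned cells, against 0.71. The share of HFD cells with H19 that also had Igf2 was 38.2% (22.2 to 56.4) in thinned cells, against 57.1%. Among HFD cells without H19 the share with Igf2 also fell, to 4.91% (3.36 to 6.90) in thinned cells, against 17.5%. Without its top 5 cells Dlk1 gave no ratio, since 0 UMIs were left in ND. The count of members past the fold upwards was 3, or 2 without the top 5 cells, with a minimum of 200 UMIs, or at 2-fold. The 2 were H19 and Peg3 without the top 5 cells and with a minimum of 200 UMIs. At 2-fold they were H19 and Dlk1, which reached its minimum only through HFD. Over the alternatives the log2 ratio ranged from 0.64 to 1.22 for Peg3 and from -0.32 to -0.05 for Cdkn1c. The removal of doublet scores and of top cells were chosen after seeing the data, and the cause of these shifts was not tested. With 1 library per diet, depth limits counting error only.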

Other observations

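The shallow Ccl11 fibroblast-like subcluster (19 ND and 51 HFD cells) had Meg3 at 844 UPM (597 to 1158) in ND and 1351 UPM (1158 to 1568) in HFD, with overlapping intervals. The shallow cells had a median of 2080 and 2004 UMIs and 8.125% and 6.61% mitochondrial UMIs, against 1.30% and 1.34% in the Ccl11 fibroblast-like subcluster. In chondrocyte-like cells, Meg3 was found in 3 of 7 ND and 14 of 15 HFD cells, while Igf2 had 0 UMIs in both libraries. The chondrocyte-like cells had a median of 12372 UMIs in ND and 18201 in HFD. The part of depth and mitochondrial share in these values was not tested.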
